A study of Mus musculus with 29 samples.

Results

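Of 34788 H3K27ac peaks called in RAW264.7 cells after 4 h of LPS (lipopolysaccharide), 3619 were late gains on existing distal H3K4me1 (10.4%, 95% interval 10.1 to 10.7). Each overlapped no H3K27ac peak of untreated cells and none of cells after 1 h of LPS. Each also overlapped no H3K4me3 peak at 4 h, but did overlap an H3K4me1 peak that was there before LPS. They are called late gains here. RAW264.7 is a mouse cell line with macrophage features that was made with the Abelson leukaemia virus. LPS, used at 100 ng/ml, comes from the outer membrane of Gram-negative bacteria and is sensed by macrophages through the receptor TLR4.

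Histone marks were mapped by ChIP-seq, chromatin immunoprecipitation with sequencing, before LPS and at 1 h or 4 h of LPS. H3K4me1 and H3K36me2 were also mapped with a 1 h treatment by flavopiridol, a CDK9 inhibitor that keeps RNA polymerase II from elongating, alone or followed by 4 h of LPS. PU.1 was mapped in untreated cells only, and no H3K27ac list after flavopiridol was analysed here. Each combination of mark and condition has 1 library. Of the 29 samples, 26 have a peak list and the 3 inputs were not used. Differences are therefore between single libraries, with no spread between cultures and no p-value. Intervals are 95% Wilson intervals for counting error only, and the read depth behind the lists is unknown. All libraries come from 1 cell line, and the labelled macrophage identity was not checked against marker genes because no mm9 gene annotation was used.

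Enhancers are often marked in steps. H3K4me1 is laid down where lineage factors such as PU.1, the master regulator of macrophage identity, have opened chromatin, and H3K27ac is added by histone acetyltransferases when the element becomes active. An enhancer with H3K4me1 and without H3K27ac is usually called primed, and one that also carries H3K27me3, the mark of Polycomb repression, is called poised. H3K36me3 covers bodies of transcribed genes, H3K79me2 their first part, and H3K36me2 broad regions within and between genes. In macrophages, LPS first acts through factors already present in the cell, while later changes also draw on secreted interferon and newly made proteins.

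The rule narrowed the 4 h list in steps. There were 7402 peaks (21.3%) with no overlap in the untreated list, and 5537 of them had none in the 1 h list either, which is 15.9% of all 4 h peaks and a share fixed by the rule. Of these 5537, 4963 had no H3K4me3 and 3619 of the 4963 (72.9%, 71.7 to 74.1) lay on untreated H3K4me1. At the edge of the rule, the smallest overlap with H3K4me1 was 2 bp and 26 late gains had under 10% of their length in H3K4me1, and 2437 lay wholly inside it. Just outside it, 56 late peaks had H3K4me1 within 500 bp, and the smallest overlap with earlier H3K27ac that removed a peak was 5 bp. The nearest late gain was 1 bp from an earlier H3K27ac peak.

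Late gains were narrow. Their median width was 738 bp (quartiles 471 and 1120 bp, range 306 to 15221 bp), and 257 were at least 2 kb wide. They covered 3.45 of the 90.7 Mb of H3K27ac at 4 h, a list whose median width was 1623 bp. They were set beside 3 other classes of 4 h H3K27ac peaks without H3K4me3. The first held 1410 peaks on untreated H3K4me1 that had appeared by 1 h (1 h gains, median 1190.5 bp). The second held 10759 peaks on untreated H3K4me1 that were acetylated before LPS (prior enhancers, 1377 bp), and the third 1344 late peaks without untreated H3K4me1 (756 bp). Narrow peaks can be lost near a caller's threshold in 1 library, and the 1 h H3K27ac list covered less of the genome (73.1 Mb) than the untreated list (83.6 Mb). The part of detection in the timing was not tested.

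PU.1, the lineage factor that opens chromatin at macrophage enhancers, was already bound at 1842 of the 3619 late gains before LPS (50.9%, 49.3 to 52.5). The share was 64.0% (61.4 to 66.4) at 1 h gains and 87.8% (87.2 to 88.4) at prior enhancers. It was 11.5% (9.93 to 13.4) at late peaks without H3K4me1. Late gains thus stood between prior enhancers and late peaks off H3K4me1, and their interval overlapped none of the other 3. Of the 1842, 1742 held 1 PU.1 peak, 95 held 2 and 5 held 3 or more, with at most 4.

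**Figure D1:**
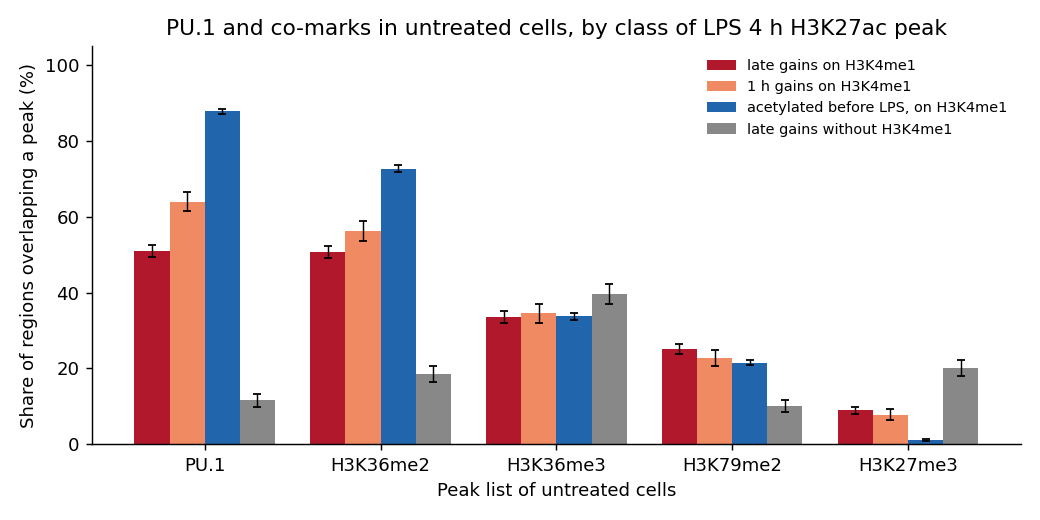
Share of regions (%, bars, with 95% Wilson intervals) overlapping a peak of PU.1, H3K36me2, H3K36me3, H3K79me2 or H3K27me3 in untreated cells, for 4 classes of LPS 4 h H3K27ac peak. Late gains on H3K4me1 have PU.1 at 50.9% and H3K27me3 at 8.95%, against 87.8% and 1.14% in regions acetylated before LPS. Over all widths H3K36me3 lies between 33.5% and 34.5% in the 3 classes on H3K4me1.

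Within width classes late gains stayed below prior enhancers in their PU.1 share. Within late gains the PU.1 share was 51.5% at 500 to 1000 bp, 49.2% at 1 to 2 kb and 57.2% at 2 kb and above. Prior enhancers of the same widths had 83.8%, 88.2% and 93.7%. The 1 h gains had 66.0%, 64.6% and 63.8%, and their interval overlapped that of late gains under 500 bp and at 2 kb and above. In a fixed window of 1 kb around the midpoint the shares were 50.2% for late gains (48.5 to 51.8), 57.2% for 1 h gains and 81.0% for prior enhancers. By the authors' fold enrichment, the strongest PU.1 peak of a region had a median of 7.23 at late gains that had PU.1, 8.23 at 1 h gains, 12.5 at prior enhancers and 5.02 at late peaks off H3K4me1, and the median of the whole PU.1 list was 6.33. The strongest of several peaks tends to be higher, and prior enhancers held a mean of 1.17 PU.1 peaks per region, against 0.538 in late gains. PU.1 summits were centred on the late gains, at 16.5 and 17.0 per 100 regions in the 250 bp bins on either side of the midpoint, and were 1.58 per 100 in the bin starting 2 kb before it.

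**Figure D2:**
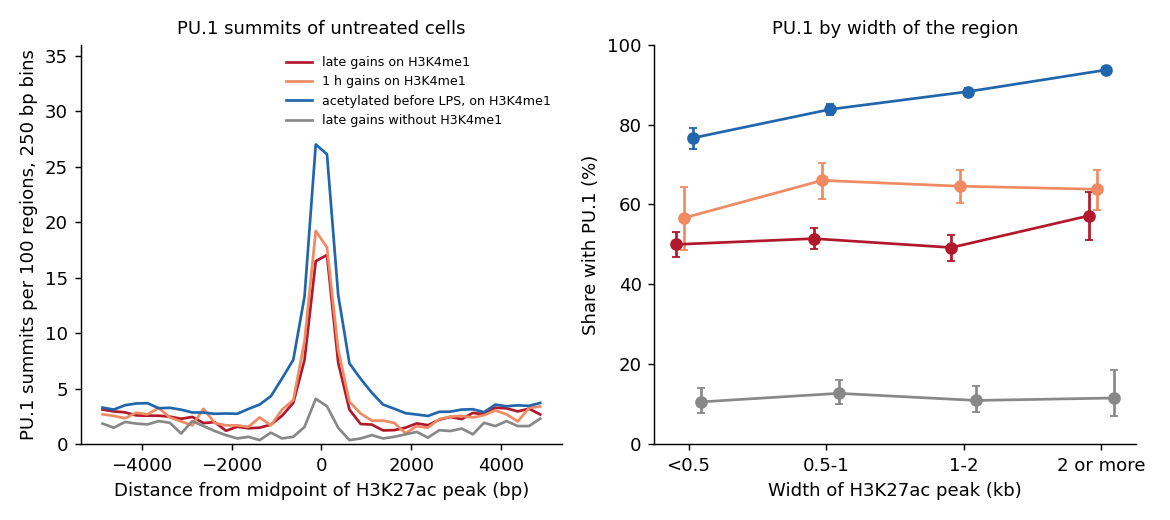
Left, PU.1 summits of untreated cells per 100 regions in 250 bp bins around the H3K27ac midpoint; right, share of regions with PU.1 (%, 95% Wilson intervals) by width of the H3K27ac peak, for 4 classes. Late gains on H3K4me1 peak at 17.0 summits per 100 regions against 27.0 in regions acetylated before LPS, and their PU.1 share is lower in each width class.

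Late gains with and without PU.1 lay in different surroundings. H3K36me3, the gene body mark, was at 24.2% (22.3 to 26.2) of the 1842 with PU.1 and at 43.2% (40.9 to 45.5) of the 1777 without. H3K79me2 was at 17.2% and 33.3%, and H3K36me2 at 46.1% and 55.4%. H3K27me3 was at 9.28% and 8.61%, and these intervals overlapped. The median widths were close, at 749 and 727 bp. The regions without PU.1 were thus more often in chromatin with marks of transcription.

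Co-marks before LPS split the late gains into a few large groups. H3K36me2 was present at 1833 (50.6%, 49.0 to 52.3), H3K36me3 at 1214 (33.5%, 32.0 to 35.1), H3K79me2 at 907 (25.1%, 23.7 to 26.5) and H3K27me3 at 324 (8.95%, 8.07 to 9.93). H3K4me3 was present at 24. Prior enhancers had H3K36me2 at 72.6% and H3K79me2 at 21.5%. For H3K36me3 over all widths the prior enhancers, at 33.8%, and the 1 h gains, at 34.5%, could not be separated from the late gains. Prior enhancers are wider, and within width classes up to 2 kb their H3K36me3 share was lower. Under 500 bp it was 22.6% (20.1 to 25.3), against 30.2% (27.4 to 33.0) in late gains. At 2 kb and above it was 46.9% (45.2 to 48.5), against 39.3% (33.5 to 45.4), and these intervals overlapped.

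Taking these 4 co-marks together, 901 late gains (24.9%) had none and were primed in the plain sense. A further 850 (23.5%) had H3K36me2 alone, 352 (9.73%) H3K36me3 alone and 294 (8.12%) H3K27me3 alone. H3K36me2, H3K36me3 and H3K79me2 together were on 361 (9.98%). The PU.1 share followed these groups: it was 66.7% (63.6 to 69.7) where there was no co-mark, 57.1% with H3K36me2 alone, 53.4% with H3K27me3 alone, 42.9% with H3K36me3 alone and 29.6% (25.2 to 34.5) with all of H3K36me2, H3K36me3 and H3K79me2. The contrast between the first and the last of these groups was not particular to late gains. With no co-mark and with all of these 3, the PU.1 share was 78.5% and 40.7% at 1 h gains, and 91.9% and 81.7% at prior enhancers. Only 300 late gains (8.29%, 7.43 to 9.23) had neither PU.1 nor any of the 4 co-marks before LPS. Untreated H3K4me3 was not part of this count.

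H3K27me3 was the co-mark that set late gains apart from prior enhancers by the largest factor. Prior enhancers were chosen by untreated H3K27ac and late gains by its absence, and the part of that choice in the difference was not tested. H3K27me3 was at 8.95% of late gains and at 1.14% (0.959 to 1.36) of prior enhancers. Over all widths 1 h gains were at 7.66% (6.38 to 9.17), an overlapping interval, and late peaks off H3K4me1 at 20.0% (17.96 to 22.2). The share rose with width in late gains, from 5.21% under 500 bp to 20.2% at 2 kb and above, and in prior enhancers it was 1.003% and 1.68%. Around the midpoints H3K27me3 had a trough in untreated cells: 6.52% of late gain midpoints lay in an H3K27me3 peak against 16.2% of points 10 kb upstream in chromosome coordinates. Of the 324 late gains with the mark, 205 lay wholly inside it and 237 had at least 50% of their length in it. Only 9.26% of the 324 also had H3K36me2 before LPS, against 54.7% of the other 3295, and 0.309% had H3K36me3, against 36.8%.

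The H3K27me3 of these 324 covered less of them after LPS, though they were chosen by the mark in untreated cells and had more room to fall than to rise. Its share of their length averaged 75.6% before LPS, then 59.1% after 1 h and 48.3% after 4 h. By 4 h 96 of 324 (29.6%, 24.9 to 34.8) had no H3K27me3 peak. Among all 4 h H3K27ac peaks with the mark 27.0% had lost it, so the loss was near that of acetylated peaks as a whole. Gains of H3K27me3 took place at 34 of 3295 (1.03%) against 0.831% over all 4 h H3K27ac peaks. The whole H3K27me3 list grew over the same time, from 362.5 to 424.8 Mb. Whole untreated H3K4me1 peaks without H3K4me3 or earlier H3K27ac were also counted. H3K27me3 went from 13.9% to 12.2% of the 2630 that held a late gain, with overlapping intervals. It went from 21.7% to 23.2% of the 28477 without H3K27ac at 4 h.

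H3K36me2 spread over late gains with LPS. It was at 50.6% before LPS, 58.1% (56.5 to 59.7) at 1 h and 62.9% (61.3 to 64.4) at 4 h. Prior enhancers moved from 72.6% to 79.5% and 81.7%. Among 1786 late gains without the mark before LPS, 509 had it at 4 h (28.5%, 26.5 to 30.6), and over all 4 h H3K27ac peaks without it the share was 29.4%. The same share was 40.2% (38.4 to 41.9) at prior enhancers, 30.1% at 1 h gains and 12.2% at late peaks off H3K4me1. Per late gain of any kind the gains were 14.1%, against 12.0% over the whole 4 h list. Losses were few, at 67 of 1833 (3.66%), against 3.02% over the whole list. Among regions that could gain or lose it, the change of H3K36me2 was near that of the whole 4 h list, with gains less frequent than at prior enhancers. The whole H3K36me2 list grew from 281 to 349 Mb.

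The mark was already called at 1 h at 300 of the 509 (58.9%, 54.6 to 63.1), near the 61.0% of all 4 h H3K27ac peaks that gained it, and first at 4 h at 209. That H3K27ac was absent at 1 h was required by the rule, so no order of the marks follows. Another 61 had it at 1 h alone. The path most often seen was presence at all 3 times, at 1706 (47.1%), followed by absence at all 3, at 1216 (33.6%).

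As over the whole 4 h list, gained H3K36me2 lay near older H3K36me2. The median distance from one of the 509 to the nearest untreated H3K36me2 peak was 922 bp, and 72.9% (68.9 to 76.6) were within 5 kb. Over all 4 h H3K27ac peaks that gained the mark these values were 476 bp and 76.3%. For the 1277 that had the mark at neither time the distance was 12479 bp and 28.0% were within 5 kb, against 6118.5 bp and 46.8% over the whole list. The 509 had H3K36me3 before LPS at 39.3% and PU.1 at 54.4%, and the 1277 had 28.7% and 56.1%. H3K27me3 was at 7.27% of the 509 and at 20.1% of the 1277, so that regions outside H3K36me2 at both times held most of the H3K27me3.

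Some of the 509 also had the mark in a list without LPS. After flavopiridol alone 227 of the 509 (44.6%, 40.3 to 48.9) had H3K36me2, against 10.9% of the 1277 without the mark at both times. Over all 4 h H3K27ac peaks these shares were higher, at 53.1% and 16.0%. Under flavopiridol and LPS together, 155 of the 509 had H3K36me2 (30.5%, 26.6 to 34.6), against 47.5% (44.7 to 50.4) of the same kind of gain at prior enhancers and 40.1% over the whole list. Of the 1766 late gains that had H3K36me2 at both times, 75.5% had it in that list, against 79.1% over all 4 h peaks. The flavopiridol lists differ in extent, with 305 Mb after the drug alone and 230 Mb after the drug and LPS, and the part of extent in these shares was not tested. H3K36me3 was at 33.5%, 33.7% and 33.4% of late gains over the 3 times, and H3K79me2 was at 25.1%, 26.1% and 26.7%.

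**Figure D3:**
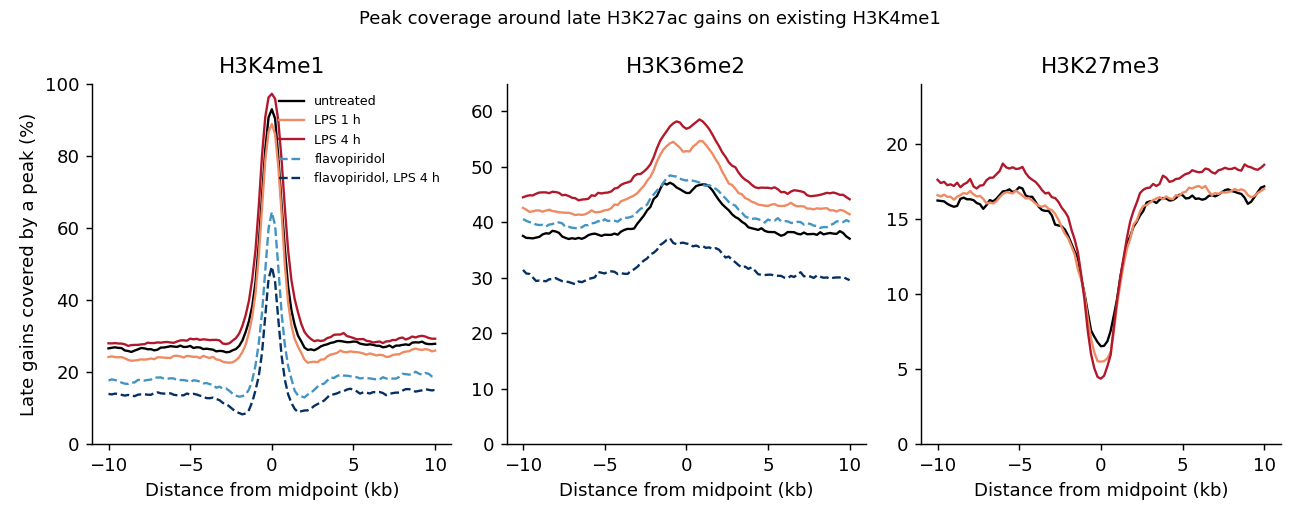
Share of the 3619 late gains (%) covered by a peak of H3K4me1, H3K36me2 or H3K27me3 at each distance from the midpoint (kb), in untreated cells, after LPS, and, for the first 2 marks, after flavopiridol. H3K36me2 shifts upward over the whole window, from 45.3% to 56.9% at the midpoint and from 37.6% to 44.5% 10 kb away, and H3K27me3 shows a trough at the midpoint at each time.

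H3K4me1 itself was mostly still called after LPS. It was required before LPS, and it was called at 3412 late gains at 1 h (94.3%, 93.5 to 94.99) and at 3587 at 4 h (99.1%, 98.8 to 99.4). Its share of their length averaged 88.9% before LPS, 85.1% at 1 h and 95.5% at 4 h. The mark widened around them: 1 kb before the midpoint 44.9% were covered in untreated cells and 53.8% at 4 h, while 10 kb away the values were 26.6% and 28.0%. No H3K4me1 peak was called at 4 h at 32 late gains (0.884%), against 0.838% of all 4 h H3K27ac peaks on untreated H3K4me1. That set is itself acetylated at 4 h. Whole untreated H3K4me1 peaks without H3K4me3 or earlier H3K27ac gave another comparison. At 4 h H3K4me1 was at 99.3% of the 2630 that held a late gain. It was at 86.7% of the 28477 without H3K27ac at 4 h. Under 1 kb these shares were 97.6% and 77.3%.

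H3K4me1 was missing from more late gains than from the other 2 classes on untreated H3K4me1 in cells treated with flavopiridol. The drug alone left a peak at 2666 of 3619 (73.7%, 72.2 to 75.1), so 26.3% had none, against 5.40% of all 4 h H3K27ac peaks on untreated H3K4me1. With flavopiridol and 4 h of LPS 2148 had one (59.4%, 57.7 to 60.9). Of the 3587 with H3K4me1 under LPS alone at 4 h, 59.8% had it with the drug too, so 40.2% did not, against 12.7% over the whole 4 h list. At prior enhancers the shares were 97.0% after the drug and 92.2% after the drug and LPS, and at 1 h gains 84.1% and 74.6%. Late peaks off untreated H3K4me1 had 13.3% and 12.6%, and of the 921 with H3K4me1 at LPS 4 h 83.9% had none after the drug and LPS. The H3K4me1 lists after flavopiridol covered less of the genome, at 144 and 117 Mb, against 192 Mb in untreated cells and 200 Mb at LPS 4 h. Each set above was acetylated at 4 h. Among whole untreated H3K4me1 peaks without H3K4me3 or earlier H3K27ac the direction was the other way. After the drug H3K4me1 was at 74.4% of the 2630 that held a late gain. It was at 59.3% of the 28477 without H3K27ac at 4 h. After the drug and LPS the shares were 60.5% and 46.3%. At 1 to 2 kb these were 63.9% and 56.8%, and under 1 kb and at 4 kb and above the intervals overlapped.

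**Figure D4:**
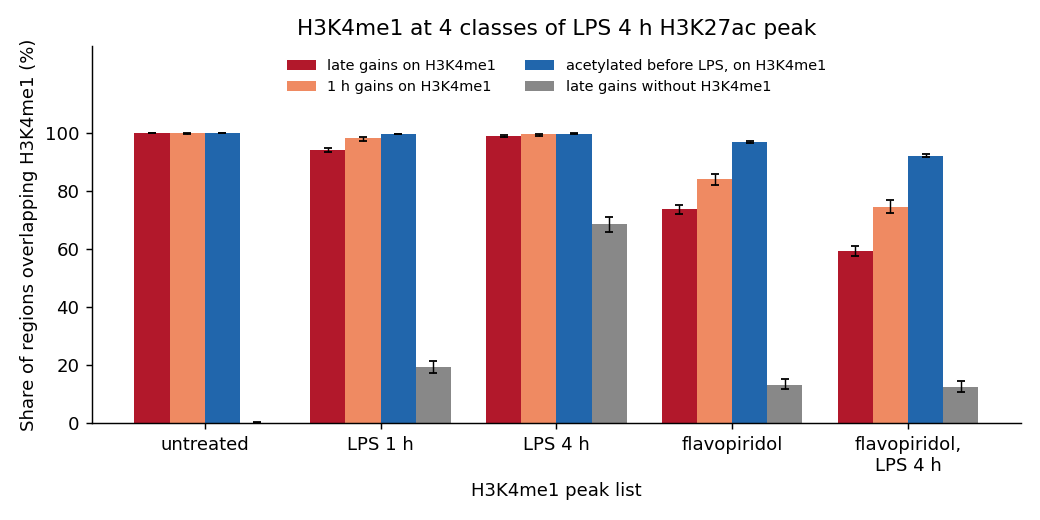
Share of regions (%, bars, with 95% Wilson intervals) overlapping H3K4me1 in each of the 5 H3K4me1 lists, for 4 classes of LPS 4 h H3K27ac peak; the untreated list was used to define the classes. Late gains on H3K4me1 go from 99.1% at LPS 4 h to 59.4% with flavopiridol and LPS, and regions acetylated before LPS from 99.8% to 92.2%.

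The order of the classes was the same among wide regions: at 2 kb and above the share with H3K4me1 after the drug and LPS was 58.8% at late gains, 74.8% at 1 h gains and 96.7% at prior enhancers. A further class was chosen after values were seen, the 2795 untreated H3K27ac peaks missing from both LPS lists, without untreated H3K4me3 and on LPS 4 h H3K4me1. These are as narrow as the late gains (median 701 bp) but lost acetylation. They had H3K4me1 at 89.2% (88.0 to 90.3) after flavopiridol and 80.0% (78.4 to 81.4) after the drug and LPS. Their PU.1 share was 71.9% (70.3 to 73.6). This class was chosen on LPS 4 h H3K4me1 and the late gains on untreated H3K4me1, and the part of that choice in the values was not tested.

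Presence of H3K4me1 in the flavopiridol lists went with the earlier chromatin of late gains. H3K4me1 was in both flavopiridol lists at 2009 (55.5%), in that of the drug alone at 657, in that of the drug and LPS alone at 139 and in neither at 814 (22.5%). PU.1 was at 61.0% (58.8 to 63.1) of the 2009 and at 32.1% (28.9 to 35.3) of the 814. H3K36me3 went the other way, at 23.3% (21.5 to 25.2) of the 2009 and 54.2% (50.7 to 57.6) of the 814. H3K27me3 was at 12.0% and 3.32%. H3K36me2 was at 47.5% and 51.8%, and these intervals overlapped. The H3K4me1 peak that held the region was wider for the 2009 (median 2412 bp) than for the 814 (1375.5 bp). Without the drug, at LPS 1 h, H3K4me1 was called at 98.6% of the 2009 and at 81.7% of the 814. The parts of that width and of the smaller flavopiridol lists in the difference were not tested.

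By co-mark group, H3K4me1 after the drug and LPS was seen at 79.9% (75.0 to 84.1) of late gains with H3K27me3 alone, 71.8% of those with no co-mark, 67.1% of those with H3K36me2 and H3K79me2, 59.2% of those with H3K36me2 alone and 38.9% (34.0 to 44.1) of those with H3K36me3 alone. H3K36me3 alone and H3K36me3 with H3K79me2, at 41.4%, had overlapping intervals. With no co-mark and with H3K36me3 alone, this share was 83.3% and 62.5% at 1 h gains, and 91.6% and 87.1% at prior enhancers.

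The authors' chromatin states describe the same regions by combinations of marks. The deposited segmentations number 27 states in steps of 200 bp, made from the libraries that also chose the regions, so their change at late gains is a description. The state at the midpoint differed between untreated cells and LPS 4 h in 2288 (63.2%, 61.6 to 64.8), against 44.7% over all 4 h H3K27ac peaks. It differed in 35.9% from untreated to 1 h, near the 37.0% over the whole list, and in 60.5% from 1 h to 4 h, against 41.6%. Before LPS 1465 (40.5%) were in state 16, which was covered by H3K4me1 over 98.1% of its length and by H3K27ac over 14.3%. At 4 h 899 were in state 16 and 701 in state 17, where H3K4me1 covered 99.9% and H3K27ac 98.7%. The most frequent change, from 16 to 17, took in 483 late gains (13.3%), and 641 stayed in 16. From state 2, which joins H3K4me1 to H3K36me2, 127 moved to state 3, which has H3K27ac as well. The peak call and the state therefore do not say the same at each region: 641 with a new H3K27ac peak kept a state that had little H3K27ac.

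Seen from the H3K4me1 side, the 3619 late gains sat in 3518 of 65547 untreated H3K4me1 peaks, and 3415 of these held just 1. The median of these host peaks was 1995 bp, against 1726 bp for all. Earlier H3K27ac lay elsewhere in 842 hosts, and 618 touched H3K4me3. The pool of H3K4me1 peaks with no H3K27ac in untreated cells or at 1 h and no H3K4me3 in untreated cells or at 4 h held 31227 peaks, of which 2630 (8.42%, 8.12 to 8.74) gained H3K27ac by 4 h as defined here. The rate rose with width: 4.11% under 1 kb, 10.5% at 1 to 2 kb, 15.0% at 2 to 4 kb and 22.6% at 4 kb and above. A wider peak has more length to hold a late gain, and the share due to length was not tested.

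Within that pool the rate was alike with and without PU.1 in narrow peaks. Under 1 kb 4.14% of peaks with PU.1 and 4.10% of those without held a late gain. At 2 to 4 kb the rates were 16.6% (15.3 to 17.97) and 11.9% (10.4 to 13.6), the only width class where these intervals were apart. They were 11.2% and 9.53% at 1 to 2 kb, and 24.4% and 16.7% at 4 kb and above. H3K36me3 went with a higher rate at each width, for example 6.73% (5.91 to 7.65) against 3.41% (3.10 to 3.75) under 1 kb. H3K27me3 went with a lower rate up to 4 kb, with 1.97% against 4.69% under 1 kb, and the intervals overlapped above 4 kb. H3K36me2 did not separate the rates at 2 to 4 kb, where they were 15.1% and 14.8%. So H3K27me3 was commoner at late gains than at prior enhancers, which were chosen by untreated H3K27ac. Yet among unacetylated H3K4me1 peaks those with H3K27me3 less often became late gains.

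**Figure D5:**
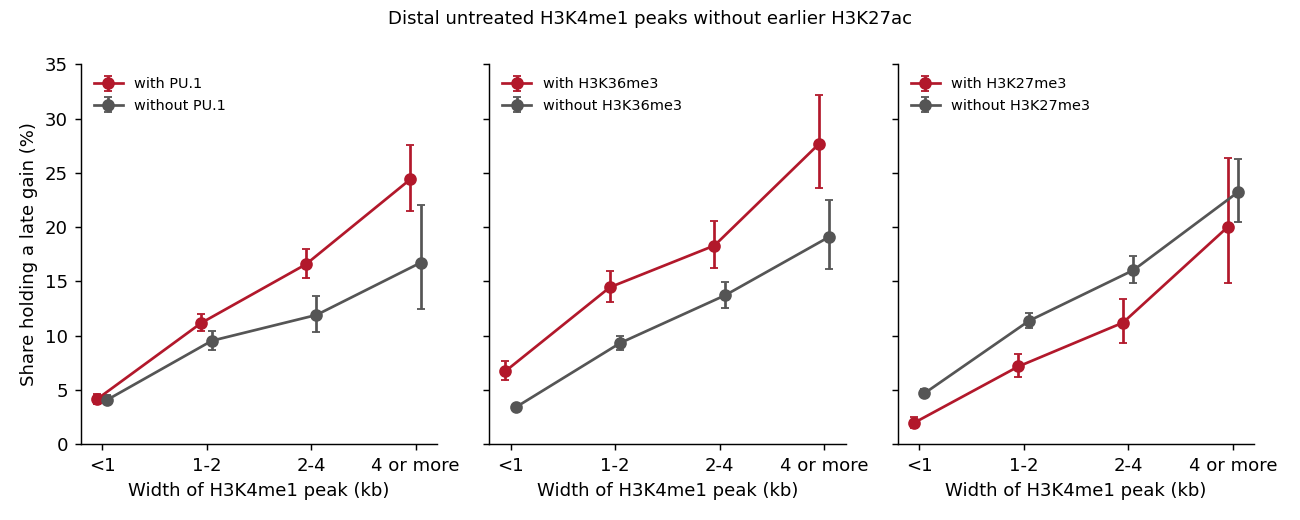
Share (%, 95% Wilson intervals) of distal untreated H3K4me1 peaks without untreated or LPS 1 h H3K27ac that held a late gain, by width of the H3K4me1 peak (kb), with and without PU.1, H3K36me3 or H3K27me3 in untreated cells. The rate is 4.11% under 1 kb and 22.6% at 4 kb and above, higher with H3K36me3 at each width and lower with H3K27me3 up to 4 kb.

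Most late gains stood apart from each other, but many lay within 10 kb of earlier H3K27ac. The median distance to the nearest untreated H3K27ac peak was 8797 bp, 54.5% (52.8 to 56.1) had one within 10 kb and 65 had one within 1 kb. The 1 h gains lay at a like distance (8630.5 bp), and late peaks off H3K4me1 at 16012 bp. The nearest H3K4me3 peak was at a median of 15340 bp. When late gains within 12.5 kb were joined, 2998 stood alone, 246 groups had 2 members, 36 had 3, 4 had 4 and 1 had 5. The group of 5 spanned chr10:110675408-110694482 (mm9), with PU.1 at 1 member, H3K36me2 at 2 before LPS and 3 at 4 h, and H3K4me1 at 3 after flavopiridol and LPS. In a group of 4 on chr15:61993279-62013707, H3K36me2 was at 3 members before LPS and at 4 after 4 h, while H3K4me1 was absent at all 4 in both flavopiridol lists. By contrast, the group of 4 on chr9:100985805-101001881 had no PU.1, had H3K36me2 at all 4 before LPS, and kept H3K4me1 at 4 after the drug alone and at 1 after the drug and LPS. Late gains made up 8.57% of the 4 h H3K27ac peaks of chromosome 7 and 12.8% of those of chromosome 16, the lowest and highest shares.

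Individual regions show how these features combine. Coordinates are 1-based positions of the H3K27ac peak in mm9, and percentages give the part of its length covered by a peak. The widest late gain, chr12:120337953-120353173, was 15221 bp long and held 1 PU.1 peak with a fold enrichment of 27.4. Its H3K4me1 covered 8.76% before LPS, 11.6% at 1 h and 61.8% at 4 h, against 6.15% after flavopiridol and 0% after flavopiridol and LPS. H3K36me2 there went from 14.9% to 40.2% and 61.1%, and was at 0% in both flavopiridol lists. The next, chr6:24019600-24033764 (14165 bp), had the same order. Its H3K4me1 was at 4.17%, 5.87% and 45.2% over the LPS times and its H3K36me2 at 16.8%, 48.8% and 51.2%, with 0% for both marks in both flavopiridol lists. In both regions H3K36me2 covered more by 1 h, and H3K4me1 chiefly by 4 h.

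The 13604 bp region chr19:34435697-34449300 held 4 PU.1 peaks, the most of any late gain. It lay wholly inside H3K36me2 at all 3 times, while H3K4me1 went from 35.7% and 29.7% to 79.3%. After flavopiridol H3K36me2 covered 70.9% and after the drug and LPS 29.1%, and H3K4me1 29.4% and 17.8%. The region chr5:101061242-101069023 (7782 bp, 3 PU.1 peaks) was inside H3K4me1 throughout LPS, at 100%, 98.8% and 100%, and H3K36me2 spread over it from 33.6% to 67.0% and 82.3%. With flavopiridol H3K36me2 was at 0%, with or without LPS, and H3K4me1 was at 79.0% and, with LPS, 26.3%. It moved from state 16 to 2 and 3, that is from H3K4me1 to H3K4me1 with H3K36me2 and then to both with H3K27ac. Of the other regions with 3 PU.1 peaks, chr9:45948364-45955348 and chr5:53803856-53807477 had H3K36me2 over at least 93.3% of their length at each LPS time and over 100% in both flavopiridol lists. The last, chrX:18792007-18794736, lay wholly inside H3K36me3 and H3K79me2 at each time, and its H3K4me1 fell to 12.2% after the drug and to 0% after the drug and LPS.

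Among the other widest regions, chr10:74797043-74804745 (7703 bp) stayed wholly inside H3K27me3 at all 3 times and in state 19, while its H3K4me1 went from 15.5% to 33.6% and 52.8%. H3K4me1 covered 25.6% of it after flavopiridol and 30.5% after the drug and LPS. The H3K36me3-marked region chr10:33729681-33736716 (7036 bp) had H3K4me1 over 93.3%, 77.7% and 100% through LPS, but over 52.4% and 5.51% in the flavopiridol lists. Another, chr7:130484011-130490885 (6875 bp, no PU.1), inside H3K36me2 and H3K79me2 and in an H3K4me1 peak of 27429 bp, kept 85.3% and 82.8%. The region chr10:23554646-23562838 (8193 bp) had no H3K36me2 in any list. At chr19:29218975-29227443 (8469 bp, no PU.1) H3K36me2 went from 7.20% to 21.3% and 71.4% while H3K27me3 was at 9.51%, 15.3% and 3.03%, and 29.6%, 30.4% and 27.1% lay in H3K36me3. This was the only late gain with H3K36me2, H3K36me3 and H3K27me3 together before LPS.

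The widest late gains that acquired H3K36me2 acquired it over part of their length. At chr13:56215165-56221515 (6351 bp), inside H3K36me3 and H3K79me2 throughout, it covered 5.27% at 4 h, and 9.04% and 9.35% in the flavopiridol lists. At chr12:32866127-32871750 (5624 bp), inside H3K36me3, it covered 4.46% at 1 h and 40.0% at 4 h. At chr15:76885303-76891058 (5756 bp) it covered 14.4% at 4 h, while H3K27me3 went from 75.9% and 77.9% to 29.1% and H3K4me1 from 11.0% and 23.4% to 100%. The reverse case, chr16:38414533-38418073 (3541 bp), lost H3K36me2 (29.0%, 25.0% and 0%) as H3K27me3 shrank from 100% and 93.6% to 50.5% and H3K4me1 went from 41.5% and 35.2% to 100%. H3K36me2 was lost inside H3K36me3 and H3K79me2 at chr1:92982539-92986140, from 20.0% to 0% at 1 h and 4 h, and at chr3:133170542-133173311, where it covered 38.0%, 99.1% and 0%.

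The widest late gains with neither PU.1 nor a co-mark before LPS were chr12:8391819-8396433 (4615 bp), chr6:49533872-49537874 (4003 bp) and chr10:75285512-75288658 (3147 bp). Their H3K4me1 covered 20.7%, 28.3% and 43.4% before LPS and 98.8%, 100% and 75.5% at 4 h. At 1 h it covered 23.0% and 46.9% of the first and second and none of the third. After flavopiridol and LPS it covered 46.0% of the first and none of the others. The region on chromosome 6 was 108275 bp from the nearest untreated H3K27ac peak, and the first moved from state 27, which has almost none of the mapped marks, to state 17.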

How the data were processed

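Per the submitters' processing notes, alignment was by Bowtie 1.0.1 against mm9 and peak calling by MACS2. The sources used here name no MACS2 version, settings, control library, pooling or segmentation tool. The authors deposited for each peak a fold enrichment, a ratio to the background set by the peak caller, the −log10 p and q, and a score, which was 10 times the −log10 q cut to a whole number. Read totals are not in the lists, so depth is unknown and limits which narrow peaks were called.

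The deposited intervals of chromosomes 1 to 19 and X were used, and sharing 1 bp counted as overlap. The PU.1 list had 99565 distinct intervals. Fold enrichment was used only to describe PU.1. Shares have 95% Wilson intervals, and no p-value was computed. The overlap code was tested on simulated intervals. Samples were grouped by their labelled mark and treatment.

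The regions, classes and lists were chosen with earlier results of these data known. Named regions are the 10 widest late gains, the 5 with most PU.1 peaks, and the 3 widest of each of these kinds: H3K36me2 gained, H3K36me2 lost, H3K27me3 before LPS, H3K4me1 absent after flavopiridol and LPS, and neither PU.1 nor a co-mark. Planned gene lists, markers, motifs and sequences needed an mm9 genome or annotation and were not run. A segmentation of untreated cells alone was not used. Alternatives were a −log10 q of at least 5, a minimum width of 1 kb, a fixed 1 kb window, 50% coverage and wider margins. Python 3.11.15, numpy 2.4.6, pandas 2.3.3 and matplotlib 3.10.9 were used.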

Additional observations from a re-analysis of the deposited data

How the results depend on the processing

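Of 45 alternatives tried over the 7 values the report rests on, 32 moved the value by less than its counting interval or, for the number of late gains, by less than 1.5 times. With H3K27ac peaks of at least 1 kb there were 1159 late gains, and H3K36me2 before LPS was at 55.0%, H3K36me2 gain at 25.0%, H3K27me3 before LPS at 14.7% and a changed state at 72.1%. When at least 50% of the region had to be covered by a mark, H3K36me2 before LPS was at 44.9%, H3K36me2 gain at 25.3%, H3K27me3 before LPS at 6.55% and H3K4me1 after flavopiridol and LPS at 47.2%. When at least 50% had to lie in untreated H3K4me1, PU.1 was at 52.6% and H3K4me1 after flavopiridol and LPS at 62.2%. In the 1 kb window H3K36me2 before LPS was at 52.6%, and by the state that covers most of the region 61.2% changed state. The cause was not tested. A −log10 q of at least 5 left 2609 late gains and moved no share beyond its interval. No paired analysis was possible because there is 1 library per mark and condition. Unknown depth limits which narrow peaks were called in each list, and planned gene lists and motifs were not run.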
